A study of Mus musculus with 11 samples.

Results

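Molecular chaperones are proteins that bind unfolded or partly folded proteins, keep them from clumping and help them reach or regain their shape. The genes described here are 10 chaperone genes of the mouse hypothalamus: the small heat shock proteins Hspb1, Hspb8 and Cryab, the HSP70 proteins Hspa8 and Hspa5, the HSP110 protein Hsph1, the HSP90 protein Hsp90aa1, the J proteins Dnajb1 and Dnaja1, and the mitochondrial chaperonin Hspd1. They were picked by symbol from the 14864 genes of the deposited table, and all 10 were found. The choice was made with the genotype difference of Hspb1 already known, so for these 10 genes the comparison of genotypes is a description without a test.

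The samples were hypothalamus from mice of 60 to 70 postnatal days, 5 of them wild type (WT; 2 females and 3 males) and 6 heterozygous for Myt1l (Het; 3 females and 3 males). The Myt1l protein is a neuronal transcription factor with zinc fingers, and the labels name neither the allele nor the strain. Libraries are named here by genotype and the number in their label, as in WT 4 or Het 9. The labels call them replicates without naming the animals, so p-values measure only the spread between these samples, which may be technical.

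The neuropeptide genes of the hypothalamus were present in every library, with Hcrt (orexin) at 774 to 1476 CPM (counts scaled by library size) and Pmch (melanin-concentrating hormone) at 309 to 667 CPM. Whole-number corrected counts totalled 22921048 to 24941704 per library. The levels of Myt1l went against the label in the library labelled WT 11, the lowest of all at 51.1 CPM, and in the library labelled Het 9, the highest at 130 CPM. Results that rest on these libraries are given with and without them. The summed CPM of all genes was 995932 to 1051800 in the WT libraries and 960874 to 997921 in the Het libraries, a log2 ratio of -0.07. Genes with a mean of at least 100 CPM were lower in Het for 73.2% of 1897 genes, with a median log2 difference of -0.09, against 52.9% of all 13184 genes tested and a median of -0.02. How each library is scaled therefore bears on small differences of abundant genes, and 8 of the 10 chaperones, all but Hspb1 and Hspb8, are above that level.

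The chaperone system works in teams. J proteins bring clients to HSP70 and stimulate its ATPase, exchange factors such as HSP110 let HSP70 release them, and HSP90 takes over many clients for the last steps of folding, while small heat shock proteins hold unfolded proteins without using ATP. In the cytosol, heat shock factor 1 raises many of these genes through heat shock elements, repeats of GAA and its reverse complement TTC in alternating order. In the endoplasmic reticulum (ER), Hspa5 is a target of the unfolded protein response, which acts through a promoter element made of a CCAAT box and a CCACG box.

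The promoter sequences below show these letters at the 10 genes. RefSeq promoters of GRCm38.p6, the build of the deposited values, were found for 7 of the 10 genes and not for Hspa8, Hsp90aa1 and Cryab. Motifs were searched on both strands of the 250 bases before each RefSeq start. The motifs were GAANNTTC, TTCNNGAA, the 3-repeat forms that extend either of these by 1 more repeat at the same spacing and so contain the shorter ones, and the ER stress response element, a CCAAT box and a CCACG box at a fixed distance. Hspb1 is shown over the whole window, chr5:135887669-135887918 on the plus strand, because its level differed most between groups. It lies directly before the annotated start of Hspb1 and holds no annotated exon, and capitals mark a pair of GAANNTTC matches, from base -117 to -110 and from -97 to -90 counted from the start.
Hspb1: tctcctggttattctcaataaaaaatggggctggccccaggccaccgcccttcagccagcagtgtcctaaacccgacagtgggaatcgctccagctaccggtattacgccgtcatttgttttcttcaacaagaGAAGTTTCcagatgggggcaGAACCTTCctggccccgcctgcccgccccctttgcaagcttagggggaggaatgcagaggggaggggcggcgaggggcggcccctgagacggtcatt

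For the other genes with a match, 30 bases around it are shown, with the match in capitals. The windows are chr1:55088053-55088082 (minus strand) for Hspd1, chr5:149636351-149636380 (minus strand) for Hsph1, chr4:40722333-40722362 (plus strand) for Dnaja1 and chr2:34772020-34772049 (plus strand) for Hspa5. Hspd1 shows overlapping matches of both 3-repeat forms, Hsph1 and Dnaja1 one 2-repeat match each, and Hspa5 the ER element. Unlike the window of Hspb1, the searched windows with these matches hold annotated exon bases, 250 of 250 for Hspd1, 218 for Dnaja1, 120 for Hspa5, and 40 and 61 in the overlapping windows of Hsph1. The 1 other window of Hspd1 and the 2 others of Dnaja1, at other RefSeq starts, held no match.
Hspd1: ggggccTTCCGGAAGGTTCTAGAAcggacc
Hsph1: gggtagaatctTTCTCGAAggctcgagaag
Dnaja1: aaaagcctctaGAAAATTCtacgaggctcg
Hspa5: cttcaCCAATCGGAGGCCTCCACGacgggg

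Short motifs are common, so these matches are read against all promoters of the table. Of 32851 promoter windows of the same length, 6.69% held GAANNTTC and 7.17% held TTCNNGAA. The 3-repeat forms were in 0.466% of windows and the ER element in 0.113%. Hspd1 shares its region with Hspe1, its co-chaperonin on the opposite strand, whose promoter window also held a 3-repeat form. Among 104 other chaperone genes with a promoter, the ER element was found in 7, namely Calr, Canx, Creld2, Dnajc3, Hsp90b1, Pdia6 and Syvn1, all of them on the list of ER chaperones. No match was found in the windows of Hspb8 and Dnajb1. A match is a description of the letters and not evidence that a factor binds there.

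Levels between genes were compared as CPM per kilobase of annotated exon (GENCODE vM21), over all 11 libraries. Hspa8, the constitutive HSP70 of the cytosol, was the most abundant of the 10, at 949 ± 61.9 CPM per kilobase (SD, n = 11), rank 40 of 14862 genes with a length. Cryab, the small heat shock protein known from lens and oligodendrocytes, followed at 366 ± 51.0, and Hsp90aa1, the stress-inducible HSP90 of the cytosol, at 227 ± 16.3. Hspa5, the HSP70 of the ER, stood at 182 ± 16.4 and Hspd1, the HSP60 of mitochondria, at 140 ± 6.08 CPM per kilobase.

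The J proteins and the exchange factor were lower. Dnaja1 was at 59.5 ± 4.29, Dnajb1 at 35.9 ± 3.30 and Hsph1 at 29.0 ± 2.34 CPM per kilobase. The remaining small heat shock proteins came last, Hspb8 at 21.7 ± 1.88 and Hspb1 at 6.86 ± 3.08 CPM per kilobase. Neighbours in this order had ranges that overlapped in 2 cases, Hsp90aa1 with Hspa5 and Dnajb1 with Hsph1. In both cases the first gene was still higher than the second in 11 of 11 libraries.

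The genes differed in how steady they were. Hspb1 had a coefficient of variation of 44.9% over the 11 libraries and a 4.74-fold span from lowest to highest. Its level rested on 66 to 313 corrected counts per library, the smallest numbers among the 10 genes. Cryab came next at 13.9%, and the other 8 genes lay between 4.35% for Hspd1 and 9.20% for Dnajb1.

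The first comparison asked how the chaperones differed between Het and WT. Hspb1, a small heat shock protein that also binds actin filaments (ENSMUSG00000004951, chr5:135887919-135889563), measured 7.89 and 13.1 CPM in the WT females (WT 4 and WT 6) and 5.65, 8.43 and 10.4 CPM in the WT males (WT 3, WT 7 and WT 11). It measured 5.58, 9.52 and 6.75 CPM in the Het females (Het 2, Het 4 and Het 7) and 4.44, 3.24 and 2.77 CPM in the Het males (Het 5, Het 8 and Het 9). The 3 Het males were the lowest of all libraries, and the groups overlapped through the Het females and WT 3.

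Hspb1 averaged 9.11 ± 2.82 CPM over the WT libraries (SD, n = 5) and 5.38 ± 2.50 CPM over the Het libraries (SD, n = 6). With sex in the model, the log2 difference, Het minus WT, was -0.83 (SE 0.21) on the log2(CPM + 0.5) scale. Without the libraries labelled WT 11 and Het 9 it was -0.62, and it was negative under all 27 alternatives. Some of these, the filter settings and 1 residual degree of freedom fewer, cannot change the difference. With the replicate number as a block and no sex term it was -0.02. Leaving out 1 library at a time gave -1.02 to -0.70. The library descriptions carry identifier prefixes whose meaning is not given. Within prefix 14308 (2 WT and 2 Het males) the difference was -0.79 and within prefix 14309 (2 WT and 4 Het libraries of both sexes) it was -1.20. The only males of prefix 14309 are the libraries labelled WT 11 and Het 9, and its only WT female is WT 6, the highest library for Hspb1. Values within prefix 14309, here and below, therefore rest on the libraries in doubt. Prefix 14111 holds WT 4 alone, and with the prefix as a block the difference was -1.02, the same as without WT 4.

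**Figure D1:**
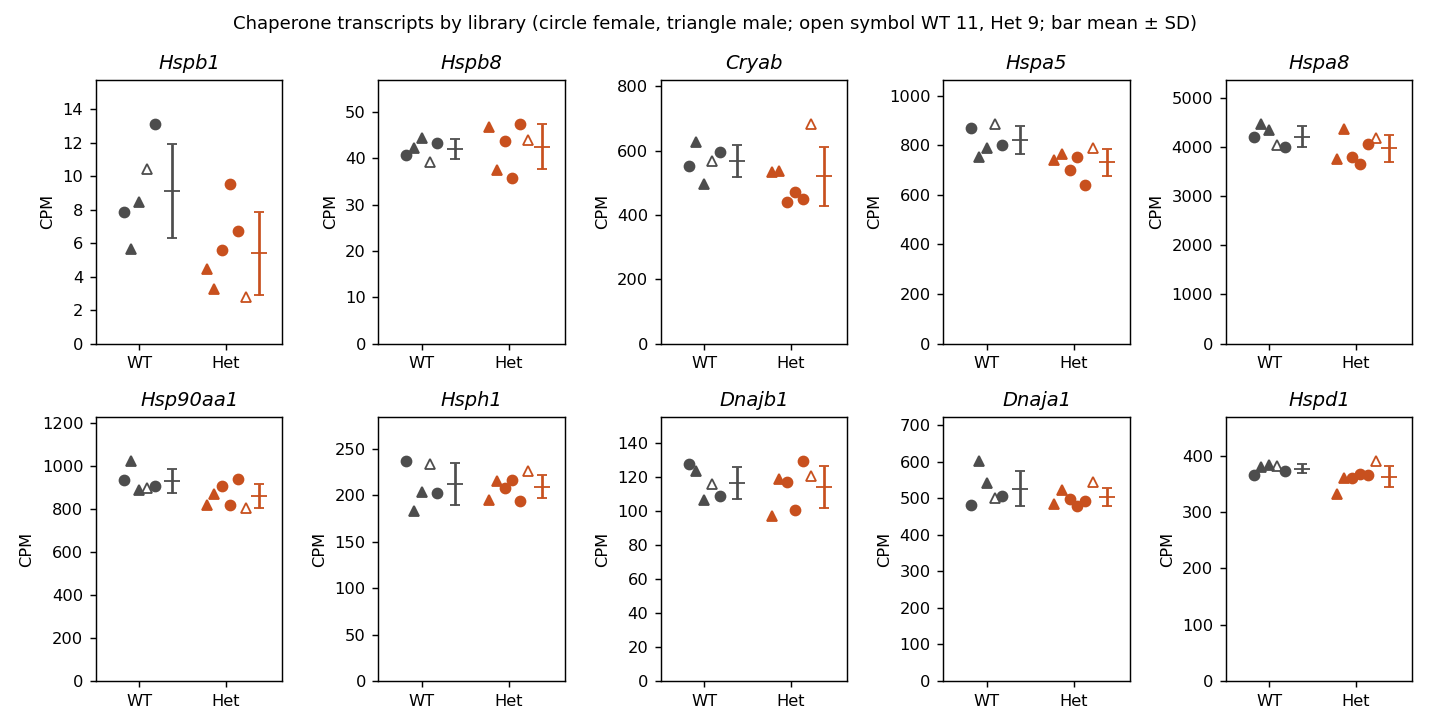
Level of each of the 10 chaperone genes in every library, in CPM on a linear axis from 0, by genotype (grey WT, n = 5; orange Het, n = 6; circles female, triangles male; bars mean ± SD; open symbols the libraries labelled WT 11 and Het 9). For Hspb1 the 3 Het males lie at 2.77 to 4.44 CPM, below every other library, and for all 10 genes the groups overlap.

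Cryab (ENSMUSG00000032060, chr9:50751325-50756636) is a holdase abundant in myelinating cells. It measured 552 and 595 CPM in the WT females, 628, 497 and 568 CPM in the WT males WT 3, WT 7 and WT 11, 441, 471 and 450 CPM in the Het females, and 535, 538 and 684 CPM in the Het males. The 3 Het females were the lowest of all libraries, and the library labelled Het 9 was the highest. The log2 difference was -0.12 (SE 0.09), -0.21 without the libraries labelled WT 11 and Het 9, -0.06 within prefix 14308 and -0.13 within prefix 14309. It was -0.05 with each library scaled to the same total CPM and -0.01 after quantile normalization, which gives all libraries the same distribution. Exons of Cryab overlap those of Hspb2 on the opposite strand over 17.0% of their length. Hspb2 itself was at 0.336 to 1.10 CPM, and the sources used here do not say whether reads were counted by strand.

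Hspb8, which works with the exchange factor BAG3 in clearing damaged proteins, differed least among the small heat shock proteins. WT libraries averaged 42.0 ± 2.09 CPM (SD, n = 5), Het libraries 42.5 ± 4.83 CPM (SD, n = 6), and the log2 difference was 0.01 (SE 0.08). The Het libraries spread over 35.7 to 47.5 CPM, around the WT range of 39.1 to 44.5 CPM.

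Among HSP70 proteins, Hspa5 (also known as BiP; ENSMUSG00000026864, chr2:34771970-34777547) differed most. It measured 868 and 802 CPM in the WT females and 752, 787 and 887 CPM in the WT males. The Het females had 699, 754 and 640 CPM and the Het males 739, 765 and 789 CPM. Of the 6 Het libraries 3 were below every WT library, and of the 5 WT libraries 3 were above every Het library. The log2 difference was -0.16 (SE 0.06), -0.16 without the libraries labelled WT 11 and Het 9, -0.03 within prefix 14308 and -0.19 within prefix 14309. It was -0.18 with each library centred on its median, -0.09 under the same total and -0.04 under quantile normalization, so its size depended on the scaling.

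Hspa8 was at 4213 ± 205 CPM in WT and 3973 ± 277 CPM in Het (SD, n = 5 and 6), a log2 difference of -0.08 (SE 0.06). The small nucleolar RNA genes Snord14c, Snord14d and Snord14e lie on the same strand within its annotated exon bases. Hsph1, an exchange factor of cytosolic HSP70, was at 212 ± 22.8 CPM in WT and 209 ± 12.6 CPM in Het, a log2 difference of -0.02 (SE 0.07). Hsp90aa1 was at 929 ± 54.8 CPM in WT and 859 ± 55.5 CPM in Het, a log2 difference of -0.12 (SE 0.06). For Hsp90aa1, 4 of 6 Het libraries were below every WT library and WT 3 was the highest, at 1022 CPM. The Hsp90aa1 difference was -0.05 under the same total and -0.00 under quantile normalization, and that of Hspa8 was -0.01 and 0.02.

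For both J proteins the log2 difference was smaller than its SE. Dnajb1, the stress-inducible partner of HSP70, was at 116 ± 9.17 CPM in WT and 114 ± 12.4 CPM in Het (log2 difference -0.04, SE 0.08). Dnaja1, a J protein of the cytosol, was at 526 ± 47.6 and 503 ± 25.5 CPM (log2 difference -0.05, SE 0.06), and shares exon bases on the opposite strand with Smu1 over 7.05% of its exon length. Hspd1 was at 377 ± 7.70 CPM in WT and 363 ± 18.8 CPM in Het (log2 difference -0.06, SE 0.05), with 4 of 6 Het libraries below every WT library and Het 9 above all.

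As a group the 10 genes had mostly lower values in Het, as abundant genes did. Values were lower in Het for 9 of 10 genes and Hspb8 alone was higher, while centring each library on its median made 10 of 10 lower and both quantile normalization and scaling each library to the same total made 5 of 10 lower. The genes with a positive difference were Hspb8, Hspa8, Hsph1, Dnaja1 and Hspd1 under quantile normalization, and Hspb8, Hsph1, Dnajb1, Dnaja1 and Hspd1 under the same total. Of genes of at least 100 CPM, 77.6% were lower under median centring, 57.1% under quantile normalization and 58.1% under the same total. Of all genes tested these shares were 57.5%, 51.9% and 40.1%. The median log2 difference over the 10 genes was -0.07, against -0.02 over all genes tested and -0.09 over genes of at least 100 CPM. Hspb1 was the 1 gene of the 10 past an adjusted p of 0.05, beside 3.44% of all genes tested (1.14% lower and 2.3% higher), and nothing is read from this count because the genes were chosen with this comparison known. Hspb1 was past the threshold neither without the libraries labelled WT 11 and Het 9 nor with 1 residual degree of freedom fewer. Nor did it pass without the sex term, and it passed in 3 of 11 fits that left out 1 library. None of the 10 had all Het libraries below all WT libraries, as 1.33% of all genes did.

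**Figure D2:**
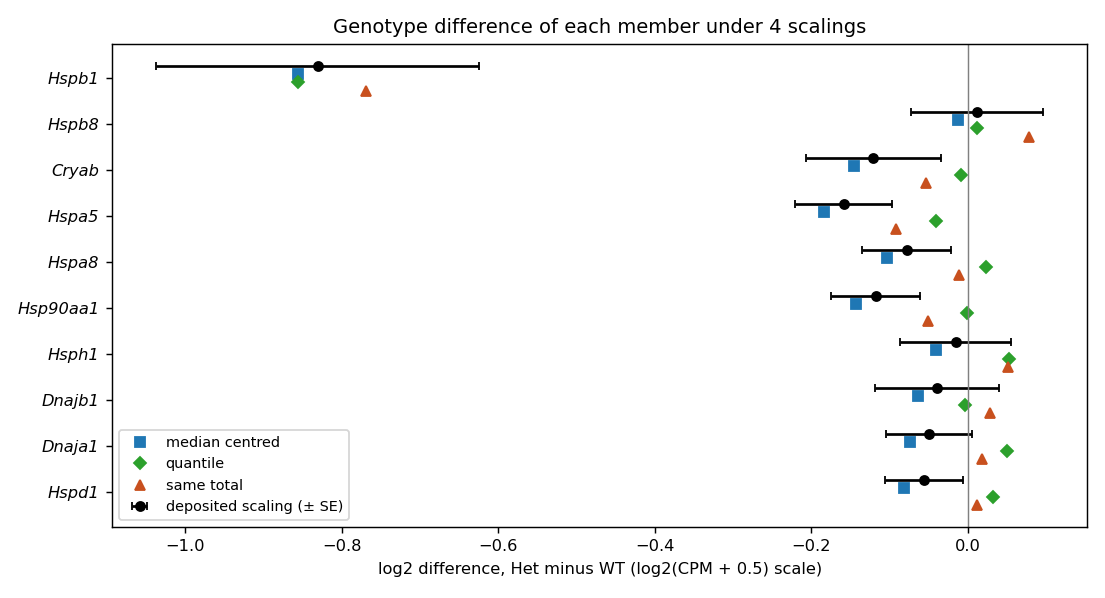
Log2 difference, Het minus WT, of each of the 10 genes on the log2(CPM + 0.5) scale as deposited (black, ± SE) and under 3 other scalings (blue squares median centred, green diamonds quantile, orange triangles same total). Hspb1 stays between -0.86 and -0.77 under the 4 scalings, while 6 of the other genes change sign.

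Markers of other cell types were measured beside these genes, since hypothalamus holds neurons, glia and vessels and a dissection can include neighbouring tissue. In bulk samples fewer cells of a type and less RNA per cell cannot be told apart. None of the 7 marker lists had a gene at 0 in all libraries. The lists were chosen with earlier results of these data known, so their counts are a description. Of all genes tested, 47% were higher in Het, and 2.3% passed the threshold as higher and 1.14% as lower. Striatal neuron genes were higher in Het for 12 of 12 genes, with a median log2 difference of 0.45, and 5 rose (Drd1, Adora2a, Pde10a, Rasd2 and Adcy5); without the libraries labelled WT 11 and Het 9 the median was 0.47 with 5 past the threshold. Their summed level was 1810 to 2293 CPM in WT and 2039 to 3738 CPM in Het. Meningeal fibroblast genes were lower in Het for 7 of 7 genes, with a median of -0.36, and Dcn fell. Without the libraries labelled WT 11 and Het 9 the meningeal median was -0.20 and 0 of 7 passed, and 0 passed under the same total (median -0.30). Their summed level was 173 to 216 CPM in WT and 91.6 to 255 CPM in Het.

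The other lists had smaller medians. Myelin genes had a median log2 difference of 0.03 with 0 of 12 past the threshold, summing to 10530 to 12270 CPM in WT and 9878 to 14450 CPM in Het. Without the libraries labelled WT 11 and Het 9 the myelin direction turned, with a median of -0.03 and 10 of 12 genes negative against 3 of 12 with them, and the median was -0.11 in females and 0.12 in males. Endothelial and mural genes had a median of 0.02 with 0 of 13 past, at 379 to 438 and 337 to 465 CPM (-0.04 without those libraries). Microglia genes had a median of -0.06 with 0 of 8 past, at 434 to 497 and 433 to 491 CPM (-0.07 without those libraries; 0.01 with 1 gene higher under the same total). Ependymal genes had a median of -0.18 with 0 of 7 past, at 182 to 192 and 166 to 238 CPM (-0.19 without those libraries). Of the 10 astrocyte genes Slc1a2 rose and Gjb6 fell, with sums of 5305 to 6204 and 5248 to 5639 CPM. The call of Gjb6 was lost without those libraries, under quantile normalization and under the same total. The part of these cell types in the chaperone values was not tested.

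The second comparison asked whether the chaperones differed between females and males, a contrast that was not used to choose them. In the limma fit with genotype in the model, 0 of 10 genes passed an adjusted p of 0.05, beside 0.197% of all genes tested (0.0758% higher and 0.121% lower in females). At an unadjusted p under 0.05 there were 2 of 10, Hspb1 and Cryab, beside 12.2% of all genes. Hspb1 was at 8.58 ± 2.94 CPM in females (SD, n = 5) and 5.83 ± 3.03 CPM in males (SD, n = 6). Its log2 difference, female minus male, was 0.68 (95% interval 0.25 to 1.12, adjusted p 0.21 by limma), positive in all 22 alternatives. Cryab was at 502 ± 68.0 CPM in females and 575 ± 68.9 CPM in males, a log2 difference of -0.19 (95% interval -0.37 to -0.00, adjusted p 0.399 by limma). The Cryab difference kept its sign in 21 of 22 alternatives and was -0.115 without the libraries labelled WT 11 and Het 9. By genotype, Cryab averaged 573 CPM in WT females and 564 CPM in WT males, against 454 CPM in Het females and 586 CPM in Het males.

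For the other 8 genes the female minus male log2 differences lay between -0.11 for Dnaja1 (95% interval -0.23 to 0.01) and 0.04 for Hsp90aa1 (95% interval -0.08 to 0.16). Their adjusted p-values ran from 0.443 to 0.977 by limma. The widest of these intervals was that of Hspb8, -0.19 to 0.17. Of 12 glucocorticoid-responsive genes in the same fit, 3, Sgk1, Tsc22d3 and Cdkn1a, fell in females relative to males, and 9 were not called. The differences of the list ran from -1.16 to 0.61, with 8 genes lower and 4 higher in females. No gene of the wider chaperone lists passed for sex, with 13 of 121 at an unadjusted p under 0.05.

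The third comparison asked whether the genotype difference was alike in both sexes. The interaction term called 0 of 10 chaperones and 0% of all genes by limma, with 4.65% of all genes at an unadjusted p under 0.05. Cryab was the only one of the 10 at an unadjusted p under 0.05. Its genotype difference was -0.34 in females and 0.05 in males on the log2 scale, an interaction of -0.39 (95% interval -0.71 to -0.06, unadjusted p 0.022, adjusted p 0.982 by limma). Without the library labelled Het 9 the interaction was -0.27. The 12 myelin genes all had a negative interaction in this fit, with a median of -0.22 and 0 past the threshold. Over all genes tested the median interaction was 0.02 and 54.4% were positive. As markers of 1 cell type the 12 genes are not separate observations, and the library labelled Het 9 had the highest myelin mean. Nor was such a lean particular to myelin. All 7 meningeal fibroblast genes and all 8 mitochondrial quality genes had a positive interaction (medians 0.45 and 0.27). Of 8 microglia genes 7 had a negative interaction and 1 a positive one (median -0.21).

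Hspb1 differed by -0.49 in females and -1.10 in males, an interaction of 0.61 (95% interval -0.24 to 1.47, adjusted p 0.982 by limma). Without WT 4 the interaction was 0.26 and without WT 6 it was 0.96, so single WT females moved it. For the other 8 genes the interaction lay between -0.18 (Hspa5) and 0.12 (Hsp90aa1), and every one of their 95% intervals included 0.

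The wider chaperone lists hold 129 further genes, of which 126 were in the table and 121 were tested for genotype. In Het relative to WT, 4 of 121 rose and 0 fell, 3.31% beside 3.44% of all genes tested and 2.3% of them higher. The median log2 difference was -0.08 and 88 of 121 (72.7%) were negative. The share was 52.9% of all genes tested and 73.2% of genes of at least 100 CPM. Under the same total 71 of 121 (58.7%) were negative with a median of -0.02. There the share was 40.1% of all genes tested and 58.1% of genes of at least 100 CPM. The lists also hold genes below 100 CPM, and of all genes from 10 to 100 CPM 51.3% were negative as deposited. These lists were drawn up with earlier results of these data known.

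**Figure D3:**
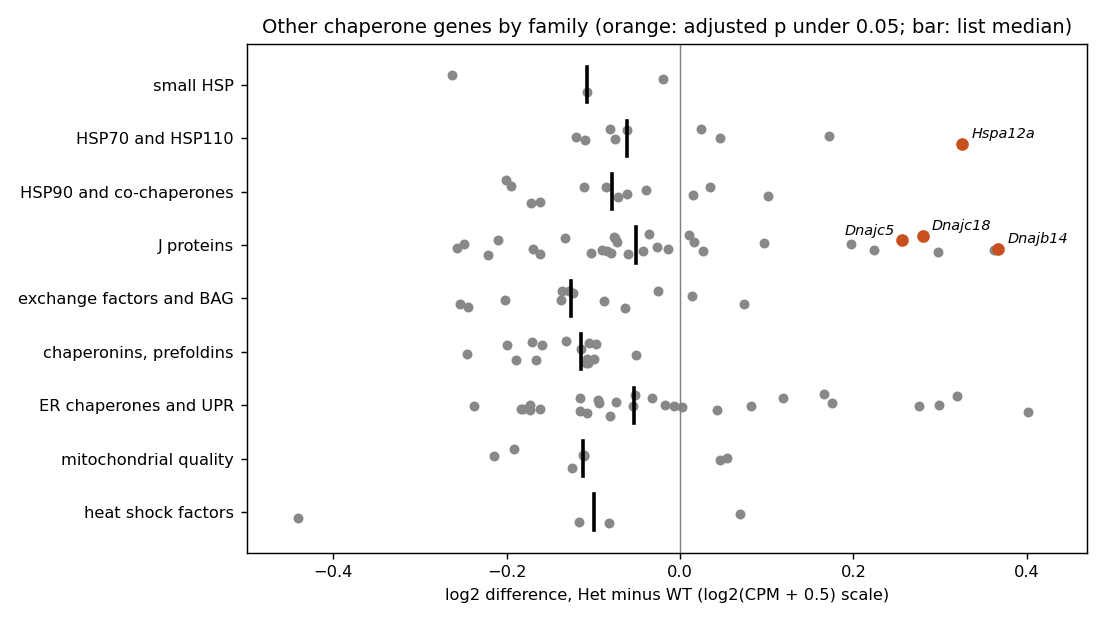
Log2 difference, Het minus WT, on the log2(CPM + 0.5) scale for 121 further chaperone genes by list (grey points; orange points passed an adjusted p of 0.05; black bars list medians). The 4 genes that passed lie between 0.26 and 0.37, and the chaperonin and prefoldin list lies wholly below 0 as deposited, with 14 of 15 genes below 0 under quantile normalization and under the same total. Of genes of at least 100 CPM, 57.1% and 58.1% were below 0 under those scalings, and of all genes tested 51.9% and 40.1%.

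The 4 genes that rose were 3 J proteins and 1 distant HSP70. Dnajc18, a membrane-bound J protein, went from 105 ± 5.84 CPM in WT (SD, n = 5) to 127 ± 8.96 CPM in Het (SD, n = 6), with a log2 difference of 0.28 (SE 0.06, adjusted p 0.0196 by limma). Dnajc5, the cysteine string protein of synaptic vesicles, went from 157 ± 12.3 to 186 ± 10.7 CPM (log2 0.26, SE 0.06, adjusted p 0.0313). Dnajb14, a J protein of the ER membrane, went from 25.2 ± 2.27 to 32.7 ± 3.71 CPM (log2 0.37, SE 0.09, adjusted p 0.0407). Hspa12a, an atypical HSP70 relative, went from 30.2 ± 3.22 to 37.4 ± 2.69 CPM (log2 0.33, SE 0.07, adjusted p 0.0265).

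In all 4 genes every Het library was above every WT library, as in 2.02% of all genes. The 4 genes were picked by the same comparison of the same libraries, so this separation adds no support to their calls. The margins were narrow for Hspa12a, whose highest WT library (WT 11) had 34.2 CPM and whose lowest Het library (Het 2) had 34.4 CPM. Calls depended on single libraries. Without Het 8 or without Het 9, 0 of the 121 genes passed, and without WT 3, 10 passed, 4 higher and 6 lower. Dnajc18 passed in 9 of 11 fits that left out 1 library, Dnajc5 in 6, Hspa12a in 4 and Dnajb14 in 3, and all 4 stayed positive in each. Without both libraries in doubt, Hspa12a alone passed.

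The 2 most abundant genes of each list did not pass the test. Of 30 J proteins 3 rose and 0 fell, with a median log2 difference of -0.05, and the abundant Dnajc8 and Dnajb6 measured -0.08 and -0.07. Of 9 HSP70 and HSP110 genes 1 rose, with a median of -0.06, and the mitochondrial Hspa9 measured -0.06 (SE 0.07). The heat-inducible Hspa1a was low, at 1.59 to 5.67 CPM in all libraries with a log2 difference of -0.11 (SE 0.28), and Hspa1b was at 0.21 to 0.713 CPM, below the filter on level. Both are near-identical copies, so the split of reads between them is uncertain. Of 12 HSP90 and co-chaperone genes none passed, with a median of -0.08, and Hsp90ab1, the constitutive HSP90, stood at 2474 ± 146 and 2404 ± 128 CPM (log2 -0.04, SE 0.06). Of 3 small heat shock protein genes tested none passed, with a median of -0.11, and Hspb6 measured -0.02 (SE 0.09).

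Chaperonins and prefoldins, which fold actin and tubulin in the cytosol or serve the mitochondrial HSP60 machine, held 15 tested genes, and 0 passed. As deposited all 15 were negative with a median log2 difference of -0.11, under median centring all 15 with a median of -0.14, and 14 of 15 were negative under quantile normalization and under the same total, where the medians were -0.04 and -0.05. In the same order, 73.2%, 77.6%, 57.1% and 58.1% of genes of at least 100 CPM were negative. Of all genes tested these shares were 52.9%, 57.5%, 51.9% and 40.1%. Hspe1, the partner of Hspd1, was at 351 ± 45.5 CPM in WT and 306 ± 22.5 CPM in Het (log2 -0.19, SE 0.08, adjusted p 0.165 by limma). Cct4, a subunit of the cytosolic chaperonin, measured -0.25 (SE 0.07, adjusted p 0.0534 by limma) and passed under median centring. Cct7, another subunit, measured -0.11 (SE 0.06) and Pfdn5, a prefoldin subunit, -0.20 (SE 0.07, adjusted p 0.127). Exchange factors and BAG proteins had 0 of 12 past the threshold, with a median of -0.13, and St13 measured 0.07 and Hspbp1 -0.13.

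ER chaperones and unfolded protein response genes had 0 of 28 past the threshold, with a median of -0.05, 18 negative and 10 positive. The split was 14 and 14 under quantile normalization (median 0.00), and 13 negative and 15 positive under the same total (median 0.01). Canx, the lectin chaperone calnexin, measured 0.04 (SE 0.06) and Pdia3, a disulfide isomerase, -0.11 (SE 0.05). The stress sensor Eif2ak3 had the highest difference of this list, 0.40 (SE 0.17, adjusted p 0.165), and Hyou1 measured 0.30 (SE 0.10, adjusted p 0.0924 by limma) and passed under the same total. Manf, an ER protein induced by the unfolded protein response, measured -0.18 (SE 0.05, adjusted p 0.0682 by limma) and passed under median centring. The 7 genes that share the ER element of Hspa5 include Hsp90b1 (GRP94), at 295 ± 19.0 CPM in WT and 275 ± 15.5 CPM in Het (log2 -0.10, SE 0.05, adjusted p 0.298). Mitochondrial quality genes had 0 of 8 past the threshold (median -0.11; Clpp -0.12, Yme1l1 0.05), and heat shock factors and their regulator 0 of 4 (median -0.10; Hsf2 0.07, Hsbp1 -0.08). Hsf1 was at 35.4 ± 4.26 CPM in WT and 32.4 ± 3.38 CPM in Het (log2 -0.12, SE 0.09). Fitted by sex, the median of the mitochondrial quality genes was 0.12 in females and -0.28 in males.

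A further description asked which chaperones varied together apart from genotype and sex. Values were centred within the 4 groups of genotype and sex and correlated over the 11 libraries, with a two-sided exact permutation within groups over 432 arrangements, for which the smallest possible p is 0.00231. Of 45 pairs 26 were positive and 19 negative, 6 had an unadjusted p under 0.05, and 0 passed adjustment over the 45 pairs. Libraries share depth, scaling and the correction by the authors, which can tie genes together. The identifier prefixes leave too few libraries with spread after centring for a value within a prefix: prefix 14308 holds 2 libraries in each of 2 groups, and in prefix 14309 only the 3 Het females share a group.

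Hspa5 and Hsph1 were the closest pair, with Pearson r 0.91 and Spearman rho 0.90 (exact permutation p 0.00231 for both, adjusted p 0.104), and r 0.90 without the 2 farthest libraries. Hspa8 with Dnajb1 had r 0.79 (rho 0.81, exact permutation p 0.0301 and 0.0208, adjusted 0.354 and 0.469). Hsp90aa1 with Dnajb1 had r 0.69 (rho 0.59, exact permutation p 0.0486 and 0.0764, adjusted 0.354 and 0.491). Without the 2 farthest libraries these were 0.83 and 0.60. Among genes of the cytosol, Hspa8, Dnajb1, Hsp90aa1 and Dnaja1 were positive with one another, with r from 0.42 to 0.79. Hsph1, of the cytosol as well, had r -0.12 with Hspa8, -0.49 with Hsp90aa1 and 0.16 with Dnajb1. Whether pairs follow the compartment was not tested.

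Hspb1 ran the other way. Its r was -0.77 with Dnajb1 (rho -0.75, exact permutation p 0.0301 and 0.0347, adjusted 0.354 and 0.491) and -0.73 with Hspa8 (rho -0.66, exact permutation p 0.0324 and 0.0440, adjusted 0.354 and 0.491). Without the 2 farthest libraries they were -0.80 and -0.62. Hspb8 with Hspa5 had r -0.71 (rho -0.63, exact permutation p 0.0417 and 0.0926, adjusted 0.354 and 0.498), and -0.77 without the 2 farthest libraries. All 6 pairs kept their sign without the libraries labelled WT 11 and Het 9, with r 0.84 for Hspa5 and Hsph1.

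**Figure D4:**
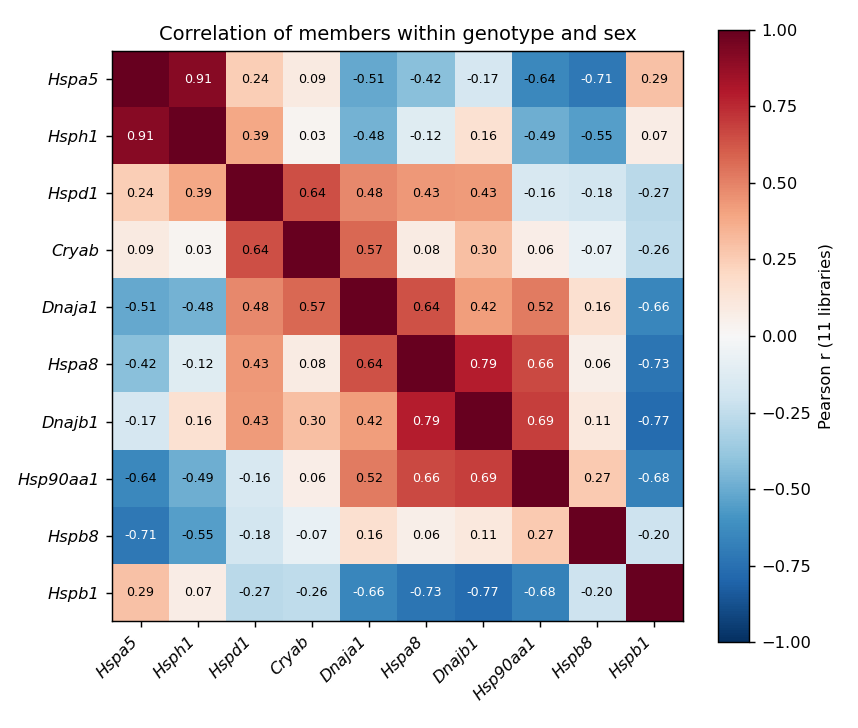
Pearson r of each pair of the 10 genes over 11 libraries after centring within genotype and sex (red positive, blue negative). Hspa5 and Hsph1 share r 0.91, Hspa8, Dnajb1, Hsp90aa1 and Dnaja1 are positive with one another, and Hspb1 is negative with those 4; no pair passed adjustment over 45.

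The members were also set against the mean of each of the 7 marker lists, the ER list and the glucocorticoid list, 90 relations in all, of which 8 had an unadjusted p under 0.05 and 0 passed adjustment. Cryab followed the myelin list, with r 0.96 and rho 0.95 (exact permutation p 0.00463 and 0.00926, adjusted 0.139 and 0.278), 0.94 without the 2 farthest libraries and 0.99 without the libraries labelled WT 11 and Het 9. The library labelled Het 9 had the highest Cryab and the highest myelin mean, 8.75 on the log2 scale. Hspb1 followed the glucocorticoid list, with r 0.87 and rho 0.78 (exact permutation p 0.0231 and 0.0440, adjusted 0.327 and 0.566) and 0.91 without the 2 farthest libraries. Between genotypes the list was lower in Het for 7 of 12 genes, with a median log2 difference of -0.21 and 0 past the threshold (-0.27 without the libraries labelled WT 11 and Het 9, and -0.31 with 2 genes lower with the prefix as a block), while Hspb1 measured -0.83. Between sexes 8 of the 12 genes, with the 3 called ones among them, were lower in females and 4 were higher. Hspb1 had the higher mean in females.

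Hspa5 and Hsph1 followed the striatal list, with r 0.81 and 0.86 (rho 0.88 and 0.93, exact permutation p 0.00231 in each case, adjusted 0.104). Without the 2 farthest libraries these were 0.77 and 0.84. Hspa5 was lower and the striatal genes higher in Het, so the relation within groups and the difference between groups had opposite signs. The other 4 were Hsp90aa1 with ependymal genes (r 0.88), Hspa5 and Hsph1 with microglia genes (r 0.74 and 0.71), and Hspa8 with meningeal fibroblast genes (r -0.82). Their rho values were 0.88, 0.65, 0.61 and -0.78, the exact permutation p of r was 0.0162, 0.0139, 0.0417 and 0.0255, and that of rho was 0.0162, 0.0301, 0.116 and 0.0440. Adjusted p-values of r by exact permutation ran from 0.292 to 0.469, and without the 2 farthest libraries r was 0.83, 0.64, 0.70 and -0.71. Without the libraries labelled WT 11 and Het 9 r was 0.90, 0.76, 0.45 and -0.80, the value of Hsph1 with microglia genes falling furthest. Hspa5 had r -0.08 with the mean of the ER list, the genes of its own compartment (exact permutation p 0.806, adjusted 0.957).

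**Figure D5:**
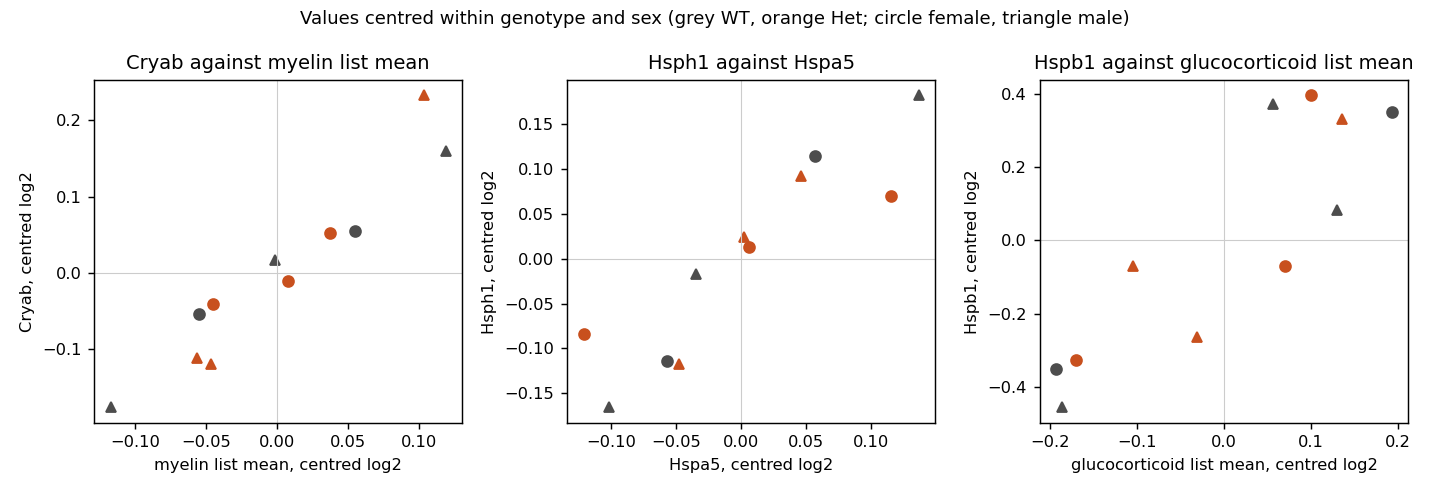
Log2 values centred within genotype and sex, 1 point per library (grey WT, orange Het; circles female, triangles male): Cryab against the mean of the myelin list (r 0.96), Hsph1 against Hspa5 (r 0.91) and Hspb1 against the mean of the glucocorticoid list (r 0.87). In each panel the points rise together. Centring gives every group the same mean on both axes, so the overlap of the genotypes is by construction.

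The genes most like Hspb1, Hspa8 and Hspa5 were ranked by Pearson r over the 11 libraries, centred the same way, among 12892 genes; with so few libraries high values are common, so they are given as a description. For Hspb1 they were Pgp (0.97), Rab30, Get4, Atp1b1 and Cul4a (0.95), with 42 genes at 0.9 or above. For Hspa8 they were Espn (0.97), Ddx31, Upf2, Mcfd2 and Paxip1 (0.95), with 47 such genes. For Hspa5 they were Tmem132a (0.99), Elfn2, Ccdc85b, Wfs1 and Lrrtm1 (0.97), with 160 such genes.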

How the data were processed

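Per the labels' protocols, a Zymo kit gave the RNA and the SMARTer Ultra Low RNA kit the libraries. Trimmomatic, Bowtie2, STAR, HTSeq and genome build mm10 are named per the submitters' processing notes, with no versions. The deposited values are log2 CPM plus a constant, on which the authors had run a correction that the table's name gives as RUVr (removal of unwanted variation from residuals). The lowest log2 value was -3.574 in every column, and after back-transformation 100% of values were a whole number of equal steps within their library (tolerance 0.02). These are corrected counts, so the raw depth is unknown.

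CPM were recovered by back-transformation, since the table held log2 values where linear CPM had been assumed. Genes with a mean of at least 1 CPM (13184 of 14864) were fitted on log2(CPM + 0.5) with limma 3.58.1 in R 4.3.3 (lmFit and trended eBayes) on genotype and sex, adding their product to test the interaction. Two-sided p-values received a Benjamini-Hochberg adjustment over all genes tested. Because residual variation had been removed before deposit, they may be too small, and a fit with 1 residual degree of freedom fewer was run. Correlations used exact permutation in Python 3.11.15. The fit was tested on simulated data.

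The 10 genes and all lists were chosen with earlier results of these data known. Named beside the 10 were, of each chaperone list, up to 4 genes past the threshold and the 2 with the highest mean CPM. For likeness, the 5 highest correlations of Hspb1, Hspa8 and Hspa5 were taken without predicted-gene names, and those of Cryab are not reported here. Outside this rule, Cct4, Hspa1a, Hspa1b, Hspe1, Hspb2, Hsp90b1, Hsf1, Hyou1, Eif2ak3, Manf, the marker genes and the ER-element genes were named after their values were seen. The 3-repeat heat shock element and the ER stress response element were searched with patterns written by hand from general knowledge. Alternatives covered the pseudocount, the filter, the scaling, left-out libraries, sex, prefix and replicate number.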

Additional observations from a re-analysis of the deposited data

Results flagged for a closer look

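None of the 10 chaperones had a library that stood apart from its own group by Dixon's test at the 95% level. Among these genes, the other named chaperone genes and Myt1l, 4 of 66 groups did, and chance alone flags about 1 in 20. Hspbp1, an exchange factor of HSP70, was low in WT 3, at 226 CPM against 281 to 301 CPM in the other WT libraries. Pfdn5 was high in Het 7, at 706 CPM against 561 to 605 CPM in the other Het libraries. Pdia3 was high in the library labelled Het 9, at 630 CPM against 534 to 567 CPM. Myt1l was high in the library labelled Het 9, at 130 CPM against 58.7 to 75.9 CPM in the other Het libraries.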

How the results depend on the processing

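For Het against WT, 453 genes passed as reported. The count was 189 with 1 residual degree of freedom fewer, 200 without the sex term, 300 with the description prefix as a block, 6 within prefix 14308, 16 within prefix 14309, 1 in males (1583 at an unadjusted p under 0.05), 0 in females (1981 unadjusted) and 229 without the libraries labelled WT 11 and Het 9. Leaving out 1 library at a time gave 140 (without WT 6) to 820 (without WT 3). Scaling each library to the same total, chosen after seeing the data, gave 781, of which 720 were higher, against 303 of 453 as reported, 233 of 476 under median centring and 362 of 464 under quantile normalization. For sex, 26 genes became 11 with 1 residual degree of freedom fewer, 17 without the libraries in doubt, 4 in WT alone and 10 to 62 without 1 library. The interaction called 0 genes by limma in every fit run, with 290 to 908 at an unadjusted p under 0.05 when 1 library was left out.

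WT and Het share only the numbers 4 and 7, and same-numbered libraries had correlations of deviations of 0.131 and -0.092. The labels do not say whether a shared number marks a litter or batch. These correlations cannot decide it, since the values had been corrected for unwanted variation before deposit. With the replicate number as a block, possible only without the sex term, 46 genes passed and the Hspb1 difference was -0.02. Of the genotype differences of the 10 chaperones, 259 of 270 moved by less than 1 residual SD between libraries. That margin lets a small difference change sign, and the filter and degree of freedom settings cannot move a difference. The prefix as a block gave the 10 genes the same differences as leaving out WT 4, the only library of prefix 14111, so these are not separate alternatives. The sign was kept in 27 of 27 alternatives for Hspb1, Hspa5 and Hsp90aa1, but in 17 for Hspb8 and 18 for Hsph1. None of the 10 passed for sex or interaction in any fit. Correlations within prefixes are not given, since too few libraries keep any spread after centring there. Precision is limited by 5 and 6 libraries, and most for Hspb1 by its 66 to 313 corrected counts.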
